A study of Mus musculus with 16 samples.

Results

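Myoepithelial cells of the mouse mammary gland were compared with the 3 sorted luminal populations of the same glands, on RNA levels from Affymetrix arrays. The comparison took all 16 arrays of the series: 4 from myoepithelial cells (Myo) and 12 from luminal cells, namely non-clonogenic luminal cells (NCL), ductal progenitors (DP) and alveolar progenitors (AP), with 4 arrays each. Each of 4 female mice aged 10 weeks gave 1 array of each population, so the myoepithelial level was set against the mean of the 3 luminal levels within each mouse. The mice were of 2 genotypes, with 2 mice each: wild type (Cpeb2 +/+, below WT1 and WT2) and knockout (Cpeb2 -/-, below KO1 and KO2). All 4 mice carried Sox2-Cre +/+ and belonged to the line DMI on a C57BL/6J 129 background, and a group without the Cre was not analysed here. The Sox2 promoter drives Cre in the epiblast, so the deletion is not restricted to the mammary gland. Mouse 1 of each genotype came from 1 parent pair and mouse 2 of each from another. Myoepithelial cells had been sorted as Epcam low and CD49f high, and luminal cells as Epcam high and CD49f low. The luminal gate was split by Sca1 and CD49b into NCL (Sca1 positive, CD49b negative), DP (positive for both) and AP (Sca1 negative, CD49b positive).

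The mammary epithelium is a bilayer. Luminal cells line the duct and alveolar lumen, carry the hormone receptors or make milk, and seal the lumen with tight junctions. Myoepithelial cells lie beneath them on the basement membrane, share keratins with the basal layer of the skin, and hold smooth muscle actin and myosin, with which they contract in response to oxytocin and eject milk.

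Expression is given as log2 values per array, and a difference of 1 is 2-fold. Levels of different genes come from different probe sets and are not set against each other. Array medians lay between 6.35 and 6.40, and the lower quartile of all probe sets between 5.08 and 5.18. Where all luminal or all myoepithelial arrays of a gene lay under that quartile, the true step may be larger than the one given. Replicate arrays of a genotype and population correlated at r = 0.977 (wild-type myoepithelial) to 0.992. The 3′ minus middle probe signal of Gapdh was 0.018 to 0.217 in the myoepithelial arrays and -0.027 to 0.599 in the luminal arrays, so the ranges overlapped. Within mice, the myoepithelial Gapdh value lay below the luminal mean in 4 of 4 mice (0.217 against 0.36 in KO1, 0.0855 against 0.109 in KO2, 0.129 against 0.388 in WT1 and 0.0184 against 0.26 in WT2), and that of Actb in 3 of 4. This sign of RNA quality moved with the comparison, and its part in the results was not tested. Cpeb2, the deleted gene, was at 5.41 and 6.03 in wild-type and at 5.25 and 4.71 in knockout myoepithelial arrays, so that cell type gives little room for a check of the labels. In NCL it was at 8.33 and 8.66 in wild type and at 6.42 and 7.67 in the knockout. Whether its probe set reads the deleted exons was not known from the labels. The DP array of WT1 stood apart in fibroblast genes: Dpt was at 9.0 there and at 6.34 or less in the other 15 arrays. Without that array 8089 genes were called in the comparison, against 8202 with it.

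Of 17097 genes tested, 8202 (48%) were called at an adjusted p under 0.05 in limma's moderated test, 4025 (23.5%) higher in myoepithelial cells and 4177 (24.4%) lower. Counts of calls in the gene lists below are to be read against these 2 shares. The difference was 2-fold or more for 1009 genes called higher (5.9%) and for 1232 called lower (7.21%). At 4-fold or more the balance turned, with 369 called higher and 281 lower, and at 16-fold or more 67 were higher and 22 lower. The arrays came from 4 mice, and the fit treated arrays of 1 mouse as nearly independent (consensus correlation 0.0383). With 1 difference per mouse 5733 genes were called, and without KO2 5106. In all 4 mice the myoepithelial array lay above the 3 luminal arrays of its own mouse for 2155 genes (12.6%) and below them for 2173 (12.7%). The median difference over all genes was 0.02. Since these are bulk samples, a change in the number of cells that express a gene and a change in the RNA per cell cannot be told apart.

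**Figure D1:**
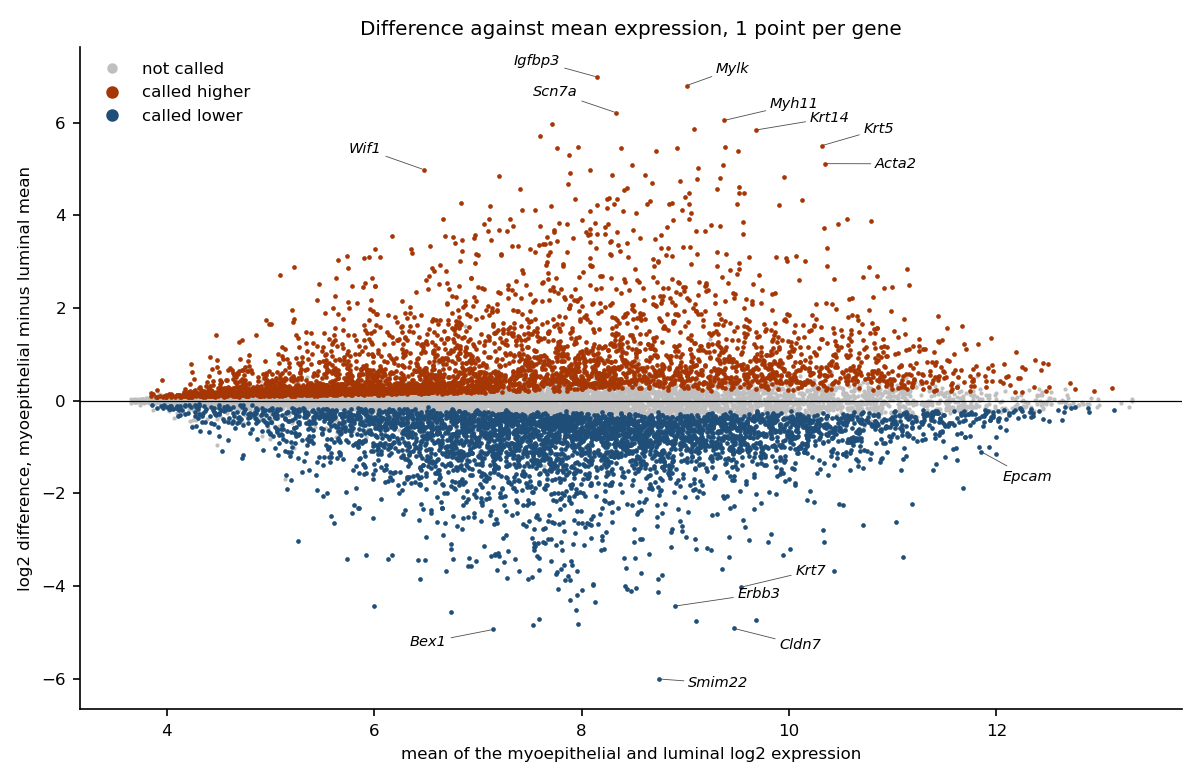
Log2 difference of myoepithelial cells minus the luminal mean (y axis) against the mean of both log2 levels (x axis), with 1 point for each of 17097 genes. Red-brown points were called higher (4025), blue points called lower (4177) and grey points not called; Igfbp3 (6.98) and Mylk (6.80) lie at the top and Smim22 (-6.0) at the bottom.

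The cell type markers separated the arrays without overlap. Krt14, a keratin of basal epithelia, was at 12.50 and 12.68 in the wild-type and at 12.66 and 12.55 in the knockout myoepithelial arrays, against 6.29 to 7.42 (median 6.63) in the 12 luminal arrays. Its partner Krt5 was at 13.11, 13.10, 13.05 and 13.01 (in the order WT1, WT2, KO1, KO2, kept below), against 6.97 to 8.39 (median 7.44). Trp63, the transcription factor p63 of basal cells, was at 12.26, 11.85, 11.80 and 12.16, against 5.73 to 6.67 (median 6.16). All 4 myoepithelial arrays thus lay at least 4 units above every luminal array for these genes. Myh11, the smooth muscle myosin heavy chain, was at 12.52, 12.28, 12.36 and 12.43, against 5.69 to 6.96 (median 6.31). Mylk, the kinase that switches that myosin on, was at 12.56, 12.37, 12.42 and 12.32, against 5.38 to 5.89 (median 5.63). The differences were 5.84 ± 0.10 for Krt14 (SE of the fit, as below), 5.50 ± 0.09 for Krt5, 5.86 ± 0.10 for Trp63, 6.05 ± 0.10 for Myh11 and 6.80 ± 0.08 for Mylk, with adjusted p from 1.11e-13 to 8.4e-13. This SE rests on the spread within each genotype and population. A difference between genotypes is not part of it, so it can understate the spread over the 4 mice. Among luminal populations the 5 markers were highest in AP, where Krt14 averaged 7.25, against 6.46 in NCL and 6.56 in DP. Myoepithelial RNA in the AP sort was not tested as the source of that step.

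**Figure D2:**
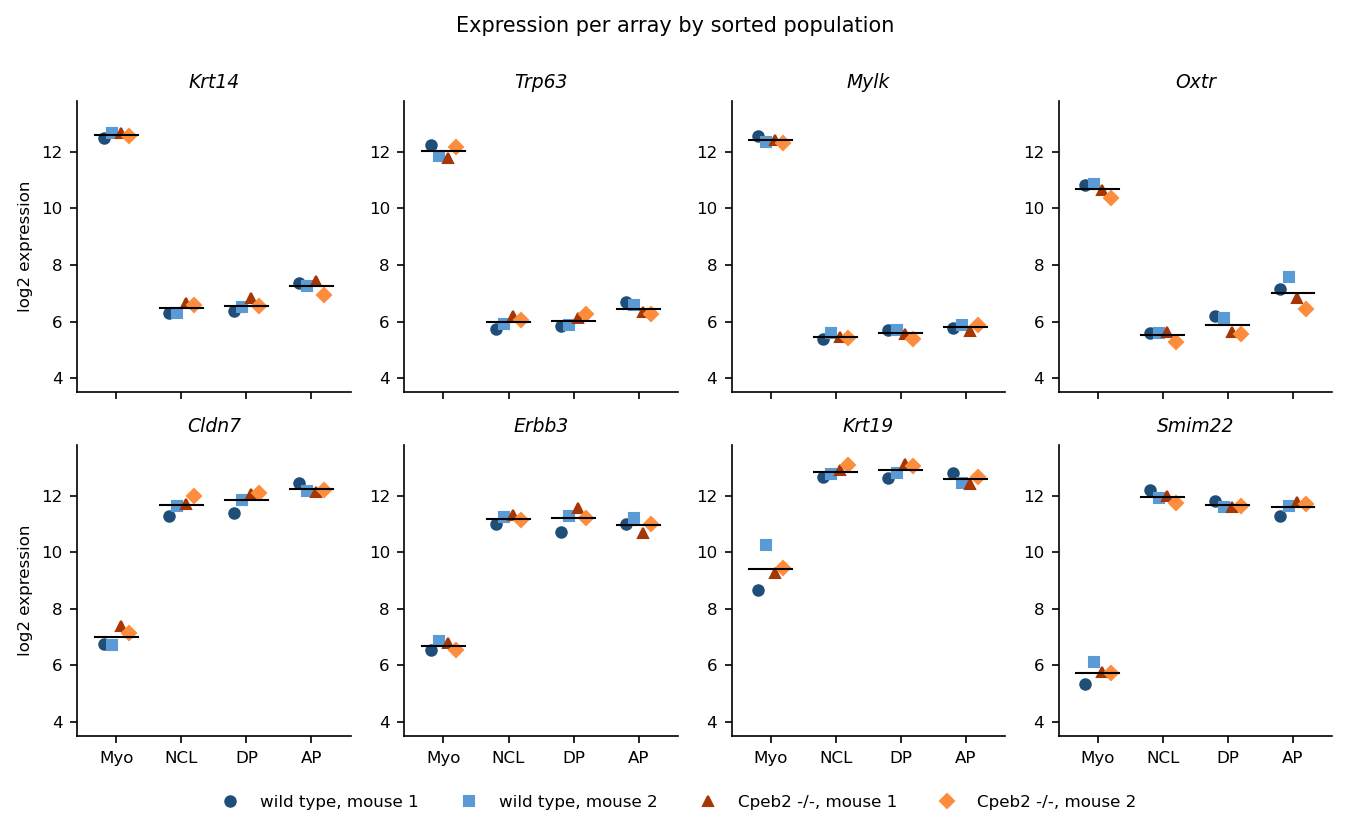
Log2 expression of 8 genes (y axis) in the 4 sorted populations (x axis), with 1 symbol per array, coloured by mouse, and a line at the mean of the 4 arrays. Krt14, Trp63, Mylk and Oxtr are high in myoepithelial (Myo) arrays only, and Cldn7, Erbb3, Krt19 and Smim22 are low there, with no overlap between the myoepithelial and the luminal arrays.

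The RNA of the sort antigens, whose proteins had defined the gates, is given as a description. Epcam was at 11.06, 11.17, 11.50 and 11.49 in myoepithelial arrays and at 12.16 to 12.64 (median 12.45) in luminal arrays. Itga6, which encodes CD49f, was at 11.84, 11.15, 11.56 and 11.56, against 10.03 to 10.85 (median 10.47). Itga2, which encodes CD49b, was at 8.37, 7.95, 9.29 and 8.63 in myoepithelial cells and averaged 6.85 in NCL, 7.66 in DP and 8.76 in AP. Both gates were thus visible at the RNA level, and myoepithelial Itga2 lay near that of the CD49b-positive AP.

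Keratins split by layer with 1 exception on each side. All 4 classical luminal keratins fell, and Krt7 fell most, from 10.65 to 12.36 (median 11.42) in luminal arrays to 7.26, 7.61, 7.76 and 7.48 in myoepithelial arrays (difference -4.02 ± 0.14, adjusted p = 3.06e-10). Krt19 fell by 3.37 ± 0.20, Krt18 by 1.87 ± 0.09 and Krt8 by 1.0 ± 0.06. Krt8 still had levels of 11.25 to 11.58 in the myoepithelial arrays, against 12.36 to 12.49 in the luminal arrays, and these ranges did not overlap. Krt23, listed with the luminal keratins, went the other way, at 9.91, 10.75, 9.59 and 10.57 in myoepithelial cells and at means of 6.59 in NCL, 7.30 in DP and 9.10 in AP (difference 2.54 ± 0.20). Of 6 basal keratins 5 rose, among them Krt15 (2.15 ± 0.14) and Krt16 (1.35 ± 0.17), while Krt6b moved by 0.13 ± 0.04 with all 16 arrays under the lower quartile and was not called without KO1 (adjusted p = 0.27). Krt6a was called lower by 0.97 ± 0.36 (adjusted p = 0.0422, not called under 20 of 33 alternatives), with means of 8.35 in NCL and 8.23 in DP against 5.07 in AP and 5.44 to 6.98 in the myoepithelial arrays.

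Every one of the 25 measured genes of smooth muscle contraction was called higher (median difference 2.22, against 0.02 over all genes), 22 of them by 2-fold or more. In each mouse the myoepithelial array lay above all 3 luminal arrays for all 25. Like the other lists, this one was chosen with earlier results of these data known, so its counts are a description. Acta2, smooth muscle alpha actin, was at 13.04, 12.94, 12.76 and 12.88, against 7.16 to 8.29 (median 7.74) in luminal arrays (difference 5.12 ± 0.10, adjusted p = 1.33e-12). Actg2, the enteric gamma actin, was at 10.36, 11.06, 10.07 and 10.36 and under the lower quartile in all 12 luminal arrays, with a difference of 5.72 ± 0.10. The regulatory light chain Myl9 rose by 4.82 ± 0.10 and the thin filament protein Cnn1 by 4.87 ± 0.08. Oxtr, the oxytocin receptor, was at 10.83, 10.86, 10.64 and 10.37, against 5.29 to 7.58 (median 5.88), with means of 5.53 in NCL, 5.88 in DP and 7.0 in AP. It rose by 4.54 ± 0.10 over the luminal mean (adjusted p = 7.83e-12). Tpm2, a tropomyosin, was even among myoepithelial arrays (12.16 to 12.23) and spread from 5.19 to 9.56 among luminal arrays, with 9.56 in the AP array of KO1. The smallest member was Des, desmin, at 0.23 ± 0.07 (adjusted p = 0.158 without KO2 and 0.106 without WT2). Kcnmb1, a subunit of the calcium-activated potassium channel of smooth muscle, rose by 3.27 ± 0.07 from luminal levels that were all under the lower quartile. Des and Kcnmb1 were picked after their values were seen.

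Serum response factor drives many of these genes from CArG boxes with the help of myocardin-related cofactors. Of 8 genes listed for the factor and its partners, 6 rose, Mrtfb (-0.55 ± 0.12) fell and Fhl1 did not pass (0.01 ± 0.15). Srf itself was at 11.23, 10.94, 11.22 and 11.32 in myoepithelial arrays and at 8.93 to 11.20 (median 9.92) in luminal arrays, where AP averaged 10.66 and NCL 9.61. The rise of Srf was 1.21 ± 0.20 (adjusted p = 0.000312) over the luminal mean and 0.52 over AP. Mrtfa rose by 1.39 ± 0.10, Fhl2, a target and cofactor, by 2.44 ± 0.11 and Mef2c by 1.03 ± 0.10 (1.79 with the most variable probe set). Myocardin itself (Myocd) rose by 0.25 ± 0.05. Without KO1 the adjusted p was 0.0644 for Mrtfb and 0.0566 for Myocd, so neither was called.

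Promoters of the contractile genes are shown because the list moved as a whole. RefSeq promoters of GRCm38.p6, from 250 bases before to 50 after the start of transcription, were on hand for 23 of the 25 genes and for 13605 measured genes. The pattern of a CArG box (CC, 6 of A or T, GG) matches on both strands alike, though a given box need not read the same. A box was found in 3 of the 23 (13%) and in 225 of all 13605 (1.65%), and no other motif was searched. Only exact matches were counted, so a promoter without one may still hold a box that departs from the pattern. A match is a description of the sequence, and a promoter without one says nothing about more distant sites. Stretches around the boxes of Myl9 (chr2:156775243-156775372), Cnn2 (chr10:79988484-79988599) and Vcl (chr14:20929148-20929240), all on the plus strand, are printed 5′ to 3′ with the box in capitals.
Myl9: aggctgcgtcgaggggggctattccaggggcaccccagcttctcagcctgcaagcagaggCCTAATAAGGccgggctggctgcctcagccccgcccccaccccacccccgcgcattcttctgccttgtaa
Cnn2: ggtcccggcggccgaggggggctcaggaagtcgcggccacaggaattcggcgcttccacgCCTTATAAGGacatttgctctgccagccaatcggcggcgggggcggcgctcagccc
Vcl: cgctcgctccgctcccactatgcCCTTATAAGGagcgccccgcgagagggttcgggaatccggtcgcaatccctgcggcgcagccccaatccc
The box lies from -161 to -152 relative to the start in Myl9, from -56 to -47 in Cnn2 and from -227 to -218 in Vcl. The 3 genes differed in their response: Myl9 rose by 4.82, Cnn2, calponin 2, by 1.94 ± 0.13 and Vcl, vinculin of focal adhesions, by 0.87 ± 0.10. Cnn2 and Vcl were at 8.98 to 10.89 and at 10.37 to 11.76 in luminal arrays.

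The genes with the largest rise were not all contractile. Igfbp3, which binds insulin-like growth factors, was at 11.81, 11.51, 11.70 and 11.56 in myoepithelial arrays and under the lower quartile in 10 of 12 luminal arrays (difference 6.98 ± 0.13, adjusted p = 1.11e-12). Scn7a, an atypical sodium channel, was at 11.41, 10.79, 11.84 and 11.73, against 4.84 to 7.02 (median 5.08), and its luminal maximum was the DP array of WT1 that also held the highest Dpt. Adam12, a membrane metalloprotease, and Antxr1, an anthrax toxin receptor that binds collagen, had their luminal maxima of 7.78 and 6.35 in that array too. Their differences were 5.47 ± 0.37 and 5.46 ± 0.18. Moxd1, a copper monooxygenase homologue, rose by 5.98 ± 0.10 and was under the lower quartile in all luminal arrays. Cxcl14, a chemokine of epithelia, was narrow on both sides, at 11.51 to 11.72 in myoepithelial and 5.98 to 6.35 in luminal arrays (difference 5.45 ± 0.08).

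Genes of the matrix beneath the epithelium were mostly higher in myoepithelial cells. Of 8 laminin chains 7 were called higher (median 2.25). Lama3, the alpha chain of laminin-332, was at 11.98, 11.73, 11.73 and 11.86, against 5.76 to 9.46 (median 6.94) in luminal arrays (difference 4.61 ± 0.19, adjusted p = 1.48e-09). Its beta partner Lamb3 rose by 3.02 ± 0.15, and Lama1 by 2.90 ± 0.10, with Lama1 at 10.18 and 10.40 in wild-type and at 8.65 and 8.95 in knockout myoepithelial arrays. Over the alternatives the rise of Lama1 ranged from 2.18 to 3.62. Lama2 did not pass (0.15 ± 0.08), but was called without WT1 (adjusted p = 0.0145) or its myoepithelial array (0.0481). The rise of Lama3 was 2.37 with the mean over all probe sets. Of 15 other basement membrane genes 13 were called higher and none lower (median 1.53), and Col4a3 (0.11 ± 0.07) and Col4a4 (0.27 ± 0.11) did not pass. With the mouse as a fixed replicate block Col4a4 was called (adjusted p = 0.0166), as it was without WT2 (0.0412), the KO1 myoepithelial array (0.0388) or the WT2 AP array (0.00998). With the mean over all probe sets both were called (adjusted p = 0.00375 for Col4a3 and 0.00942 for Col4a4), and with the most variable probe set Col4a3 was (0.00017). Col4a2, a chain of the main collagen IV network, was at 11.77, 11.67, 11.55 and 11.57, against 5.68 to 7.66 (median 6.45), a difference of 5.02 ± 0.13. Hspg2, perlecan, rose by 3.48 ± 0.14 and Sparc, a collagen chaperone, by 4.22 ± 0.16.

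Genes of the interstitial matrix were less uniform, with 11 of 17 called higher and 2 lower (median 0.79). Postn, periostin, rose by 5.09 ± 0.26, Ltbp2 by 4.24 ± 0.13, Eln, elastin, by 4.16 ± 0.11 and Vcan, versican, by 3.91 ± 0.22. Ltbp1, which tethers latent TGF-beta, fell by 1.52 ± 0.21. The lysyl oxidases Lox, Loxl1 and Loxl2 did not pass, at 0.06, 0.09 and -0.01. Lox was called with the mean over all probe sets (0.14, adjusted p = 0.00976) and with the most variable one (0.34, adjusted p = 0.00289), and Loxl1 without WT1 (adjusted p = 0.0427). With the mean over all probe sets Vcan was at 2.12 and Ltbp1 at -0.56. Fibroblasts make several of these proteins, so the fibroblast markers are given beside them. Only 2 of the 14 markers, Col1a2 and Pdgfra, were under the lower quartile in all 16 arrays. This includes the DP array of WT1 that stood apart in fibroblast genes. Their differences of -0.03 and 0.00 thus say little about fibroblast RNA. The mean level of the 14 markers was 6.64 to 6.90 in myoepithelial arrays, 6.15 to 6.33 in NCL, 6.48 to 7.40 in DP and 5.51 to 5.82 in AP. Of the 14, 7 were called higher and 2 lower: Col6a1 rose by 3.30 ± 0.30, Fbln1 by 2.43 ± 0.16 (1.61 with the mean over all probe sets) and Dcn by 1.72 ± 0.25, and Col6a3 fell by 1.85 ± 0.54. The call of Col6a3 was lost without WT2 (adjusted p = 0.131) and without the myoepithelial array of WT2 (0.0613) or of KO1 (0.0568). Without KO1 4 were called higher and 1 lower, and without KO2 the counts were the same. Without the KO1 myoepithelial array 5 were called higher and 0 lower. The part of fibroblast RNA in the matrix result was not tested.

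Receptors for that matrix rose with it. Of 16 integrin subunits 11 were called higher and 2 lower (median 0.90). The 11 include Itga6 (1.0), whose protein CD49f had defined the gates, so its rise is not independent of the sort. Itga9 rose by 3.52 ± 0.12, Itgb3 by 3.45 ± 0.25 and Itga1, a collagen receptor, by 2.47 ± 0.07. Itgb3 varied among mice, at 10.35, 8.47, 9.43 and 9.72, and all 4 values lay above the luminal maximum of 7.34. Itgb6, the beta chain of an epithelial TGF-beta activator, fell by 1.47 ± 0.09 and Itgb5, picked after its value was seen, by 0.83 ± 0.11. Hemidesmosomes anchor basal cells to laminin-332, and 7 of 8 of their genes were called higher, the sort antigen Itga6 again among them. Col17a1, the collagen of the hemidesmosome, was at 12.39, 11.87, 12.14 and 12.07, against 6.37 to 7.33 (median 6.55), a difference of 5.47 ± 0.16. The other members moved less, from Itgb4 at 1.60 ± 0.11 to Cd151 at 0.44 ± 0.08, and Plec, plectin, did not pass (0.09 ± 0.17).

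Most genes of tight junctions and of the apical surface were lower. Of 19 genes of tight junctions and polarity 16 were called lower and 1 higher (median -1.61). Cldn7 was at 6.76, 6.74, 7.40 and 7.15, against 11.30 to 12.46 (median 12.04) in luminal arrays (difference -4.91 ± 0.11, adjusted p = 5.43e-12). Cldn3 fell by 4.76 ± 0.17, Cldn4 by 3.32 ± 0.19, Ocln, occludin, by 3.62 ± 0.27 and Cgn, cingulin, by 3.35 ± 0.13. Ocln was at 8.04 in the KO1 myoepithelial array and at 5.89 to 6.28 in the other 3, all below the luminal minimum of 9.58. The 1 member called higher was Cldn12, at 0.54 ± 0.13 (adjusted p = 0.078 without KO2), named after its value was seen. F11r (0.11 ± 0.11) and Patj (-0.18 ± 0.08) did not pass. Of 17 genes of the apical or epithelial surface 15 were called lower and none higher (median -1.40). The 15 include Epcam (-1.10), whose protein had defined the gates, so its fall is not independent of the sort. Rab25, which sorts cargo to the apical membrane, was at 8.24, 9.17, 7.77 and 7.89, against 11.08 to 11.64 (median 11.35), and Prom1 fell by 3.99 ± 0.12. Muc4 (-0.24 ± 0.11) and Esrp1 (-0.20 ± 0.10) did not pass. Muc4 was called without WT2 (adjusted p = 0.0189), the WT2 AP array (0.0155) or the KO1 AP array (0.0454).

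Cadherins and desmosome genes went in both directions. Cdh3, P-cadherin, was at 11.26, 11.14, 11.32 and 11.57, against 6.39 to 6.84 (median 6.57) in luminal arrays, and rose by 4.74 ± 0.09 (adjusted p = 1.58e-12). Cdh1, E-cadherin, was at 9.85, 9.58, 9.91 and 9.97, against 10.29 to 10.84 (median 10.52), and fell by 0.73 ± 0.08. In the desmosome Dsc2 fell by 3.35 ± 0.21 and Pkp2 by 2.31 ± 0.14, while Pkp1 rose by 1.86 ± 0.12 and Perp by 1.34 ± 0.12. Of the 17 genes 10 were called higher (58.8%, against 23.5% over all genes) and 3 lower (17.6%, against 24.4%). The catenins Jup, Ctnnb1 and Ctnnd1 did not pass, at 0.02, -0.12 and 0.04. Ctnnb1 was called without the WT1 myoepithelial array (adjusted p = 0.019) and Ctnnd1 without WT2 (adjusted p = 0.0175). With the mean over all probe sets the rise of Cdh3 was 3.11, and with the most variable one the difference of Pkp2 was -3.79.

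**Figure D3:**
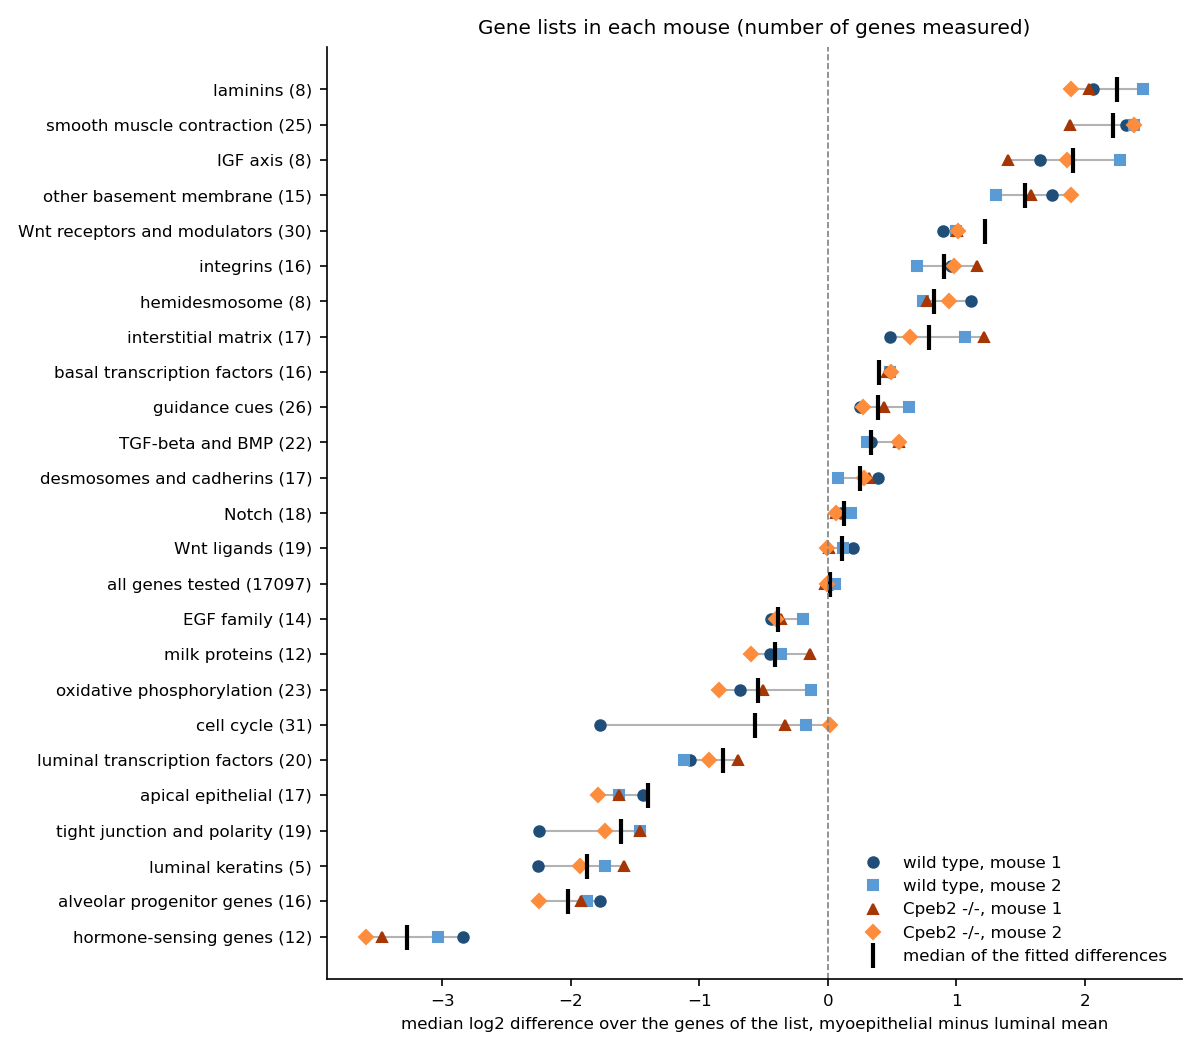
Median log2 difference, myoepithelial minus luminal mean (x axis), over the genes of 24 lists and over all genes (rows, with the number of genes measured), with 1 symbol per mouse and a vertical tick at the median of the fitted differences. Smooth muscle, laminin and basement membrane lists lie above 1 in all 4 mice, and tight junction, apical, luminal keratin, alveolar and hormone-sensing lists below -1; for the cell cycle list the mice range from -1.77 in WT1 to 0.01 in KO2.

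The gene with the largest fall, Smim22, encodes a small membrane protein. Smim22 was at 5.36, 6.14, 5.76 and 5.72, against 11.29 to 12.19 (median 11.74) in luminal arrays (difference -6.0 ± 0.13, adjusted p = 4.69e-12), which was -2.99 with the mean over all its probe sets. Bex1 fell by 4.94 ± 0.36 and was under the lower quartile in 3 of 4 myoepithelial arrays. Basp1, a membrane-bound signalling protein, fell by 4.74 ± 0.13, Mal2, of apical transcytosis, by 4.70 ± 0.14, and Bik, a pro-apoptotic BH3-only protein, by 4.56 ± 0.14, with all 4 myoepithelial arrays of Bik under the quartile. With the mean over all probe sets Bik was at -2.88 and Tlcd4 at -2.79, against -4.83 for Tlcd4 in the probe set of highest mean. For 5 of the 15 named falls the AP level lay far below that of NCL and DP. Ido1, which opens the breakdown of tryptophan, averaged 11.63 in NCL, 11.60 in DP, 7.66 in AP and was at 5.37 to 6.73 in myoepithelial arrays. Tph1, which starts serotonin synthesis from tryptophan, averaged 12.12 in DP and 8.29 in AP and was at 6.18 to 7.22. Tlcd4, the chemokine Cxcl15 and H2-Q1 had the same order, with AP means of 7.04, 7.36 and 6.70.

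Transcription factors followed the layers in part. Of 16 basal factors 11 were called higher and none lower (median 0.40). Id4, an inhibitor of helix-loop-helix factors, was at 10.43, 10.55, 10.39 and 10.45, against 5.78 to 6.49 (median 6.00), a difference of 4.38 ± 0.09. Egr2 rose by 3.67 ± 0.37 and Snai2, Slug, by 3.54 ± 0.13, with Snai2 under the lower quartile in all luminal arrays. The other mesenchymal factors Snai1, Twist1, Zeb1 and Zeb2 did not pass, at -0.42, 0.08, 0.20 and 0.01. Without WT1, however, Snai1 (-0.73, adjusted p = 0.00844), Twist1 (0.20, adjusted p = 0.0177) and Zeb1 (0.35, adjusted p = 0.0038) were called. Zeb1 was also called without the WT1 myoepithelial array (adjusted p = 0.00304) and with the mean over all probe sets (adjusted p = 0.00426). Of 20 luminal factors 12 were called lower (60%, against 24.4% over all genes) and 4 higher (20%, against 23.5%). The median was -0.81. Ehf was at 5.38, 6.17, 5.71 and 5.70, against 8.01 to 11.44 (median 9.56), and fell by 4.06 ± 0.17. Foxa1, a pioneer factor for the estrogen receptor, fell by 3.85 ± 0.23, and Grhl1 by 3.46 ± 0.10. Elf3 fell by 2.94 ± 0.12 and Elf5, of alveolar cells, fell by 2.76 ± 0.20. Tfap2c, listed as luminal, was at 11.43, 11.33, 11.42 and 11.53, above every luminal array (6.43 to 10.32), and rose by 3.10 ± 0.11. Grhl2, Ovol2, Tfap2a and Xbp1 did not pass, at -0.19, -0.21, 0.06 and -0.15.

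The luminal mean joins 3 populations that differ. The myoepithelial cells were next compared with each, in fits that share the myoepithelial arrays and so are not independent. Against NCL 7690 genes were called (45%), against DP 7131 (41.7%) and against AP 6248 (36.5%). Without KO2 the counts were 4909, 4206 and 3036. Population means of Myo and AP differed by 2-fold or more for 1896 genes (r = 0.923 across genes), those of Myo and DP for 2468 (r = 0.903) and those of Myo and NCL for 2788 (r = 0.886). Those of NCL and DP differed so for 129 (r = 0.993). Since NCL and DP are alike and both enter the luminal mean, choosing genes by that mean favours AP in the counts that follow. These counts therefore do not rank the populations. Among the 1009 genes called higher by 2-fold or more over the luminal mean, the AP mean lay within 0.5 of the myoepithelial mean or above it for 119 (11.8%). This held for NCL in 11 (1.09%) and for DP in 6 (0.595%). Among the 1232 called lower by 2-fold or more, the AP mean lay within 0.5 of the myoepithelial mean or below it for 217 (17.6%), the NCL mean for 59 (4.79%) and the DP mean for 0.

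Sox10 and Igfbp5 belonged to that first set, and Pdlim3 lay just outside it. Sox10, a neural crest factor of mammary progenitors, was at 10.59, 10.62, 10.95 and 10.71 in myoepithelial arrays and averaged 6.56 in NCL, 8.32 in DP and 10.85 in AP. It rose by 2.14 ± 0.11 over the luminal mean, and against AP differed by -0.13 ± 0.13 (adjusted p = 0.456). Igfbp5 averaged 5.16, 9.24 and 11.31 and was at 10.76, 11.13, 10.19 and 10.18, lower than AP by 0.74 ± 0.19 (adjusted p = 0.0084). Pdlim3, a protein of the actin Z-disc, averaged 6.28, 8.23 and 10.90 and was at 11.71, 11.78, 11.17 and 11.32, above AP by 0.59 ± 0.11 (adjusted p = 0.00145). The steps from NCL to DP to AP were thus large next to the spread between mice. Pkp1 (0.12 ± 0.14), Itga8 (0.14 ± 0.28), Hey1 (-0.45 ± 0.32), Lgr6 (-0.12 ± 0.19) and Ncam1 (-0.02 ± 0.20) did not pass against AP, with adjusted p from 0.292 to 0.951, and each rose over NCL and over DP. Pdlim3 and the last 5 were picked after their values were seen.

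Genes of the 2 luminal branches were low in myoepithelial cells against different populations. Of 12 genes of hormone-sensing cells 9 were called lower, all by 2-fold or more, and none higher (median -3.28). The medians were -4.35 against NCL, -4.38 against DP and -1.08 against AP. Pgr, the progesterone receptor, was at 7.12, 6.53, 6.34 and 6.78 in myoepithelial arrays and averaged 10.98 in NCL, 11.11 in DP and 7.0 in AP, a difference of -0.31 ± 0.31 against AP (adjusted p = 0.47). Esr1, the estrogen receptor, was at 7.30, 7.02, 8.07 and 8.08, lower than AP by 0.72 ± 0.16 (adjusted p = 0.00385) and than NCL by 3.66. Greb1 (-0.91 ± 0.47), Tnfsf11 (-0.08 ± 0.08) and Tspan8 (-0.48 ± 0.24) did not pass over the luminal mean. Greb1 was called with 1 difference per mouse (adjusted p = 0.0381), without WT1 (-1.25, adjusted p = 0.015) and without the WT1 DP array (adjusted p = 0.0256). Tspan8 was called without WT1 (-0.95, adjusted p = 0.00437) or its myoepithelial array (0.00113) and with the mean over all probe sets (0.00751). Tnfsf11 was called without WT2 (adjusted p = 0.0132) or its myoepithelial array (0.0208). Of 16 genes of alveolar progenitors 10 were called lower (62.5%, against 24.4% over all genes) and 3 higher (18.8%, against 23.5%). The median was -2.02. Here the medians were 0.23 against NCL, -2.12 against DP and -3.32 against AP. Kit, the receptor of stem cell factor, was under the lower quartile in the 4 myoepithelial and the 4 NCL arrays, averaged 8.16 in DP and 10.86 in AP, and differed from NCL by 0.00 ± 0.19. Csn3, kappa casein, was at 7.14, 7.78, 7.03 and 7.55, above NCL by 1.10 ± 0.18 (adjusted p = 0.000258) and below AP by 5.24. Elf5, Ltf, Aldh1a3, Wfdc18 and Atp6v1b1 did not pass against NCL. The 3 members called higher were Tnfrsf11a, the RANK receptor (2.09 ± 0.13), Lcn2 (1.36 ± 0.09) and Trf, transferrin (1.26 ± 0.27), and Trf was below AP and above NCL by 4.85. Among 12 milk protein genes 5 were called lower (41.7%, against 24.4% over all genes) and 1 higher (8.33%, against 23.5%). That was Glycam1, which was uneven among mice, at 7.10, 5.17, 8.09 and 6.30 against 5.0 to 5.45 in luminal arrays, and was not called in the wild-type mice alone or without KO1 (adjusted p = 0.0572).

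**Figure D4:**
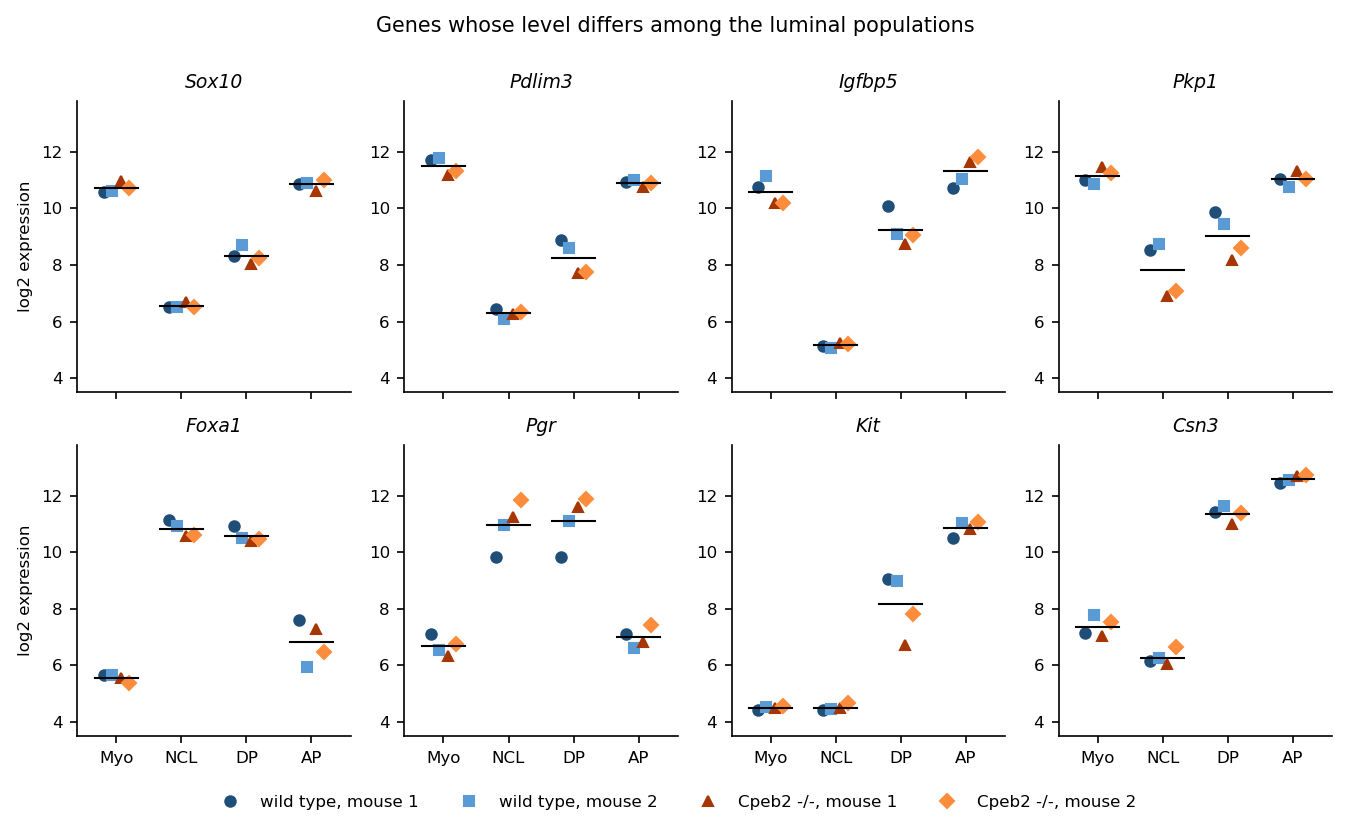
Log2 expression (y axis) of 8 genes in the 4 sorted populations (x axis), with 1 symbol per array, coloured by mouse, and a line at the mean of the 4 arrays. Sox10, Pdlim3, Igfbp5 and Pkp1 step up from NCL to DP to AP and lie in Myo within 1 unit of AP, Foxa1 and Pgr are high in NCL and DP, and Kit and Csn3 in DP and AP.

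In all 4 mice the myoepithelial array lay between AP and NCL, above the former and below the latter, for 279 genes (1.63%), and in the opposite order for 282 (1.65%). Fgg, a fibrinogen chain, led the first group, at 8.70, 8.81, 9.63 and 9.67 in myoepithelial arrays, with means of 11.56 in NCL and 6.88 in AP. Olfm1, Kif5c, Slc7a2 and Tmem158 followed. Cldn1 led the second, at 8.12, 8.43, 6.91 and 7.19, with means of 5.10 in NCL, 8.50 in DP and 11.12 in AP. Wnt5b, Otud1, Tspan8 and Cited2 followed. Over the luminal mean the 10 genes differed by -1.26 (Kif5c) to 0.52 (Wnt5b).

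Among EGF family genes, 4 of 14 were called higher (28.6%) and 7 lower (50%). Over all genes the shares were 23.5% and 24.4%, so that called higher was near the share over all genes. Nrg1, neuregulin 1, was at 8.26, 7.84, 7.99 and 7.73 and under the lower quartile in all luminal arrays (difference 3.56 ± 0.09). Erbb3, a receptor for neuregulins, was at 6.54, 6.88, 6.79 and 6.54, against 10.68 to 11.57 (median 11.18), a fall of 4.43 ± 0.12 (adjusted p = 5.17e-11). The ligand was thus higher and its receptor lower in all 4 mice. Egfr rose by 1.93 ± 0.11 (3.31 with the most variable probe set), and the EGFR ligand Btc fell by 2.77 ± 0.16.

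Notch genes went in both directions, with 8 of 18 called higher (44.4%) and 5 lower (27.8%). Over all genes the shares were 23.5% and 24.4%, so that called lower was near the share over all genes. The ligands Dll1 and Jag1 rose: Dll1 was at 9.61, 9.20, 10.43 and 10.23, against 5.88 to 6.62 (median 6.17), and Jag1 at 11.70, 11.51, 11.56 and 11.76, against 7.16 to 9.29 (median 8.96). Their differences were 3.65 ± 0.09 and 3.13 ± 0.14. The receptor Notch3 was at 6.39, 6.63, 6.65 and 6.99, against 8.77 to 9.86 (median 9.42), and fell by 2.73 ± 0.15. Notch1 fell by 1.40 ± 0.18, and the Notch targets Hes1 and Nrarp fell by 2.04 ± 0.24 and 1.90 ± 0.17. Another target, Hey1, rose by 1.48 ± 0.26 over the luminal mean. Without KO1, without WT2 or without the KO1 myoepithelial array 5 genes of the list were called higher.

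In the Wnt pathway the receptors and modulators moved more than the ligands. Of 30 receptors and modulators 20 were called higher and 3 lower (median 1.22). Of 19 ligands and R-spondins 4 were called higher (21.1%) and 3 lower (15.8%), with a median of 0.11. These shares lay under those over all genes (23.5% and 24.4%). Wnt10a was at 9.60, 9.50, 9.63 and 10.02, against 5.05 to 5.38 (median 5.09), a difference of 4.56 ± 0.08. Wnt4 and Wnt7b fell by 1.91 ± 0.14 and 1.96 ± 0.13. Wnt5a did not pass over the luminal mean (0.44 ± 0.22), since it lay below NCL by 1.26 and above AP by 3.79. Wif1, a secreted inhibitor that binds Wnts, was at 9.64 and 9.72 in wild-type and at 8.64 and 7.90 in knockout myoepithelial arrays. It was under the lower quartile in all luminal arrays (difference 4.99 ± 0.09, but 4.29 to 5.68 over the alternatives). Lgr5, a receptor for R-spondins, was at 10.02, 9.18, 10.08 and 9.22, against 4.32 to 7.07 (median 4.48). Lgr5 rose by 4.85 ± 0.25, Dkk3 by 3.37 ± 0.10, Fzd7 by 3.16 ± 0.22 and Lgr4 by 2.92 ± 0.16. Axin2, a common readout of the pathway, was called higher by 0.34 ± 0.07 and was named after its value was seen. Its difference was 0.28 without KO2. The gene was not called with 1 difference per mouse (adjusted p = 0.0765) or in the knockout mice alone (0.11, adjusted p = 0.412). Lef1 did not pass (0.10 ± 0.04). Lef1 was called without WT1 (adjusted p = 0.0273), its myoepithelial array (0.0158) or the KO1 NCL array (0.0403). The rise of Lgr5 was 3.21 with the mean over all probe sets.

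Among 22 genes of TGF-beta and BMP signalling 13 were called higher (59.1%, against 23.5% over all genes) and 3 lower (13.6%, against 24.4%). The median was 0.34. Tgfbr3, betaglycan, was at 11.80, 11.29, 11.57 and 11.70, against 5.65 to 9.31 (median 6.79), and rose by 4.57 ± 0.13. Fst, follistatin, which traps activins, was at 11.11, 10.98, 11.53 and 11.51, against 6.66 to 7.14 (median 6.76), and rose by 4.49 ± 0.09. Bmp7 rose by 2.45 ± 0.12 and Tgfbr1 by 2.09 ± 0.29. Without KO2 9 of the list were called higher and 1 lower. Of 8 IGF axis genes 6 were called higher (median 1.91), among them the receptor Igf1r (2.25 ± 0.13) and the binding protein Igfbp2 (4.87 ± 0.20), and the ligands Igf1 and Igf2 did not pass, at 0.14 and -0.13 (Igf2 was called without WT2, adjusted p = 0.0398). Of 9 FGF genes 4 were called higher (44.4%, against 23.5% over all genes). These were Fgf2 by 2.45 ± 0.18, Fgfr3 by 1.84 ± 0.14, Fgf1 by 1.77 ± 0.10 and Fgfr1 by 0.77 ± 0.10. Of 26 guidance genes 16 were called higher (61.5%, against 23.5% over all genes) and 3 lower (11.5%, against 24.4%). The median was 0.39. Sema3c rose by 3.20 ± 0.18, Robo1 by 2.31 ± 0.20, Epha4 by 2.16 ± 0.08 and Slit2 by 1.51 ± 0.06 (0.88 with the mean over all probe sets), and Ntn1, netrin 1, fell by 1.75 ± 0.16, with means of 5.79 in NCL and 10.82 in AP.

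Of 23 genes of oxidative phosphorylation 18 were called lower and none higher (median -0.54), 1 of them, Sdha, by 2-fold or more (-1.30 ± 0.09, but -0.46 with the mean over all its probe sets). Without KO2 11 were called lower, and 6 were in the wild-type mice alone. Of 15 glycolysis genes 9 were called higher and 2 lower (median 0.32). Slc16a3, a lactate transporter, rose by 2.07 ± 0.45 and Pfkp by 1.96 ± 0.24, while Aldoc fell by 2.98 ± 0.16 (-1.97 with the mean over all probe sets). Without KO1, or without the KO2 myoepithelial array, 4 were called higher. Of 14 lipid synthesis genes 5 were called lower (35.7%, against 24.4% over all genes), among them Scd1 (-2.33 ± 0.15) and Dgat2 (-1.93 ± 0.18), and 1 higher (7.14%, against 23.5%). Of 31 cell cycle genes 8 were called lower and none higher (median -0.57), a share of 25.8% against 24.4% over all genes. The median was -1.77 in WT1, -0.17 in WT2, -0.34 in KO1 and 0.01 in KO2, so 1 mouse stood apart. Without the WT1 myoepithelial array 2 were called lower, and without the WT2 myoepithelial array 21. Without KO1 the count was 1, without KO2 2, without WT2 26 and without the WT1 AP array 13, and it was 5 without either knockout myoepithelial array. Mcm2, of the replicative helicase, fell by 2.14 ± 0.25.

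Markers of other cell types were measured beside these results. Of 15 leukocyte markers 3 were called higher, at 0.16 (Laptm5), 0.21 (Fcer1g) and 0.26 (Tyrobp), a share of 20% against 23.5% over all genes, and the pan-leukocyte gene Ptprc differed by 0.03. The leukocyte calls numbered 0 without KO2 and 1 without KO1, and with the mouse as a fixed replicate block Laptm5 was not called (adjusted p = 0.0687). Of 15 endothelial markers 11 were called higher and 1 lower (median 0.65), and their mean level was 6.30 to 7.08 in myoepithelial arrays and 5.83 to 6.20 in luminal arrays. Cdh5, the endothelial cadherin, was at 7.83 and 7.81 in wild-type and at 8.47 and 9.30 in knockout myoepithelial arrays, against 5.96 to 6.92 (median 6.40), a difference of 1.93 ± 0.14. Fabp4, of adipocytes and capillaries, was at 10.12, 10.95, 11.10 and 11.48, against 6.21 to 10.17 (median 8.45), and rose by 2.51 ± 0.35. Adipoq, a defining adipocyte gene, differed by 0.04. Yet 3 of 5 adipocyte markers, Fabp4 included, were called higher and 0 lower (median 0.21). That count called higher was 1 without KO1, and 2 of the 5 markers were under the lower quartile in all arrays. Of 8 pericyte markers 6 were called higher (75%, against 23.5% over all genes), Rgs5 by 1.42 ± 0.11, and Notch3 lower. Myoepithelial arrays thus held more signal of vascular genes than luminal arrays, and its part in the matrix, integrin and signalling results was not tested. Of 5 Schwann cell markers 3 were called higher (60%, against 23.5% over all genes), with a median of 0.23. Of 20 immediate early and stress genes 5 were called higher (25%) and 4 lower (20%), shares near those over all genes (23.5% and 24.4%). Without KO1, or without the KO2 myoepithelial array, 2 of them were called lower. Of 15 interferon genes 6 were called higher (40%, against 23.5% over all genes) and 1 lower (6.67%, against 24.4%). Irgm1 (1.80) and Gbp2 (1.14) were among those called higher, and the list median was 0.58. Without KO1, or without KO2, 3 of the interferon genes were called higher. Of 13 genes of antigen presentation and defence 6 were called higher (3 without KO1) and 4 lower (30.8%, against 24.4% over all genes). Cd74 was at 8.90 and 8.93 in wild-type and at 7.69 and 7.76 in knockout myoepithelial arrays, against 6.61 to 7.36 in luminal arrays.

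The comparison was then set between genotypes. Within genotypes, 4621 genes were called in wild type and 6558 in the knockout, each fit resting on 2 mice. Of these 3525 were called in both, 3519 of them in the same direction. Those 3519 were 76.2% of the wild-type and 53.7% of the knockout calls. Differences per mouse correlated across genes at r = 0.836 to 0.938 between pairs of mice, and the highest value was that of the 2 knockout mice. The difference between genotypes was tested itself as an interaction and called for 117 genes (0.684%), 61 higher and 56 lower in the knockout contrast. No gene was called when each mouse gave 1 value (2 against 2), where 1990 passed an unadjusted p under 0.05. The count went from 6 without KO2 to 755 without the WT1 myoepithelial array, so it rests on single mice. Of the 5 genes described next, 4 were not called without KO1 or without KO2 (adjusted p from 0.0694 to 0.18), and Adamts18 kept its call there.

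Reln had the largest difference in wild type among the 5 genes of smallest p. This secreted glycoprotein was at 11.40 and 10.89 in wild-type and at 9.57 and 9.53 in knockout myoepithelial arrays, against 5.34 to 5.66 in the 12 luminal arrays. Its myoepithelial excess was 5.96 and 5.51 in wild type and 4.08 and 4.12 in the knockout (genotype difference -1.63 ± 0.17, adjusted p = 0.00426). Fbln7, a matrix glycoprotein, was at 9.32 and 9.0 in wild-type and at 7.68 and 7.84 in knockout myoepithelial arrays, and at 5.31 to 5.71 in luminal arrays. In both genes the luminal arrays of the genotypes overlapped and the myoepithelial arrays did not. Since the genes were picked by their genotype p in these same arrays, that split is a description and adds no support. Adamts18, a matrix metalloprotease, was at 8.40 and 8.35 against 6.99 and 6.30, with all luminal arrays under the lower quartile. Gpx2, a glutathione peroxidase, was at 9.48 and 9.76 against 7.61 and 8.12. Olfm2, an olfactomedin, went the other way, at 5.30 and 5.62 in wild type and 7.11 and 6.83 in the knockout. The 5 keratin and muscle markers showed no such split, and none of them was called for a genotype difference.

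**Figure D5:**
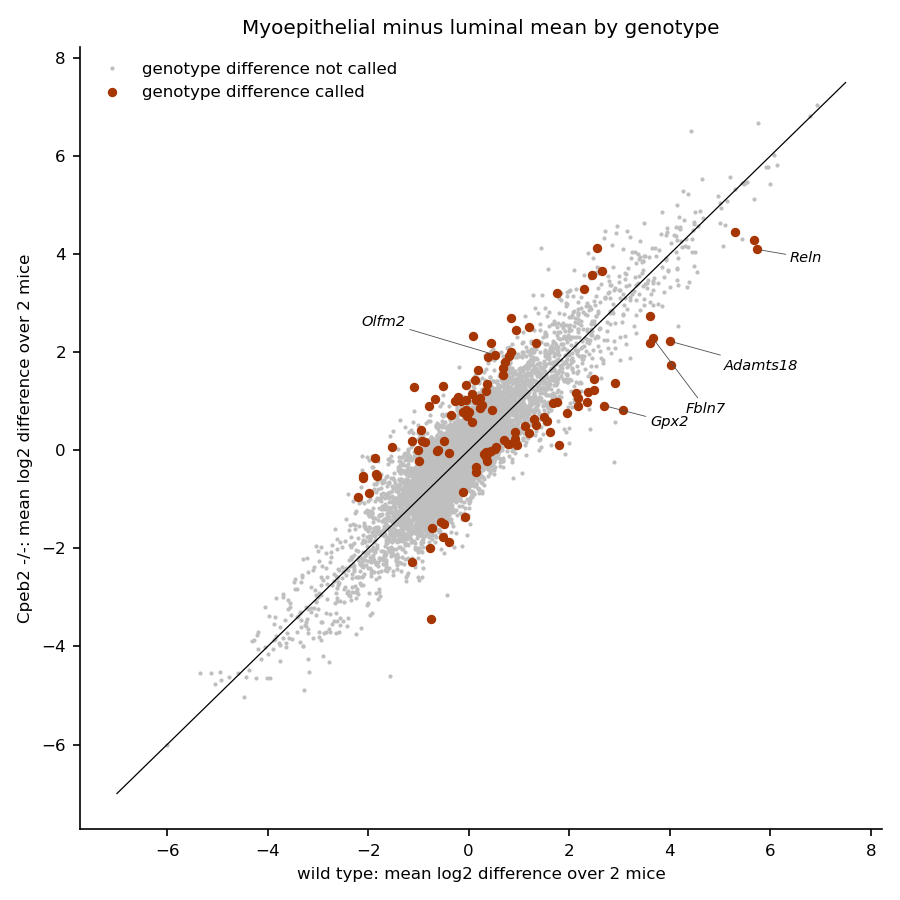
Log2 difference, myoepithelial minus luminal mean, averaged over 2 wild-type mice (x axis) and over 2 Cpeb2 -/- mice (y axis), with 1 point for each of 17097 genes and the line of equality. Red-brown points are the 117 genes called for a genotype difference; Reln, Adamts18, Fbln7 and Gpx2 lie below the line and Olfm2 above it.

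Within the CPEB family itself, whose members bind the 3′ ends of mRNAs, Cpeb2 fell by 1.49 ± 0.23 and Cpeb4 by 1.39 ± 0.22 in myoepithelial cells over both genotypes, Cpeb1 rose by 0.55 ± 0.11 and Cpeb3 did not pass (-0.06 ± 0.09). Cpeb3 was called lower with the mean over all probe sets (-0.27, adjusted p = 0.032) and with the most variable one (-0.45, adjusted p = 0.0207). For Cpeb2 the knockout arrays enter this mean, and in the wild-type mice alone its difference was -1.84 and -1.37.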

How the data were processed

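Affymetrix arrays of 4 sorted populations from each of 4 mice were analysed. The deposited values are log2 intensities per probe set; RMA and limma are named per the submitters' processing notes, with no version. RMA fits arrays together, so a global shift between samples is not kept. Each gene was read from its probe set of highest mean, of 45141 deposited, where the platform annotation gave a single symbol. Then limma 3.58.1 (R 4.3.3, statmod 1.5.0) was fitted to 8 group means with the mouse as a random block (consensus correlation 0.0383), an intensity trend and Benjamini-Hochberg adjustment over 17097 genes. Deviations from group means of arrays from 1 mouse correlated at -0.17 to 0.56 in wild type and at 0.05 to 0.58 in the knockout. The steps were tested on simulated data with independent noise in each array and no mouse effect. That run therefore says nothing about error from effects shared by the arrays of 1 mouse. Genes named were the markers, the sort antigens, the 15 largest rises and 15 largest falls seen in all 4 mice, up to 8 members of largest difference per list (all members of short lists), members not called where counted, the 5 genes of smallest genotype p and 5 genes of each in-between order. Members and lists were chosen with earlier results of these data known. Cnn2, Vcl, Lgr6, Trf and Atp6v1b1 were picked after their values were seen. List genes without a probe set matched by symbol were not analysed here. The number of arrays limits the precision.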

Additional observations from a re-analysis of the deposited data

Results flagged for a closer look

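Of the 117 genes called by limma's interaction test, the 5 of smallest p with an established symbol are given here. For each of them the myoepithelial minus luminal difference itself differed between the genotypes. On the log2 scale, knockout minus wild type, it was -1.77 for Adamts18, -1.63 for Reln, -1.78 for Gpx2 and -1.37 for Fbln7, with an adjusted p of 0.00426 each, and 1.42 for Olfm2, with 0.00846. All 5 calls were lost when each mouse gave 1 value (adjusted p = 0.267). Those of Reln, Gpx2, Fbln7 and Olfm2 were also lost without KO1 (adjusted p = 0.137, 0.135, 0.151 and 0.147) and without KO2 (adjusted p = 0.18, 0.0694, 0.117 and 0.1). Over the alternatives the differences ranged from -2.14 to -1.40 for Adamts18, from -1.88 to -1.39 for Reln, from -2.03 to -1.54 for Gpx2, from -1.53 to -1.22 for Fbln7 and from 1.27 to 1.58 for Olfm2. Each genotype had 2 arrays per population, too few for a test of single arrays that stand apart.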

How the results depend on the processing

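No gene named above changed sign while called under an alternative run, but 24 of 218 genes, not called, changed sign under at least 1. With the mean over all probe sets 14 of 155 genes of 2-fold or more moved by over 1.5 times, and with the most variable probe set 3 did. The counts moved by over 1.5 times with fewer samples: in the wild-type mice alone 4621 genes were called over the luminal mean, 4286 over NCL, 3757 over DP and 2458 over AP, and with 1 difference per mouse 4270 over DP and 0 for the genotype difference. With array weights 21 genes were called for the genotype difference. Leaving out 1 mouse or 1 array gave 5106 to 8513 genes over the luminal mean, 4909 to 7965 over NCL, 4206 to 7488 over DP, 3036 to 6511 over AP and 6 to 755 for the genotype difference. With the mouse as a fixed replicate block 8169 genes were called over the luminal mean, and 8021 with no block. List medians moved, in 21 of 41 lists under at least 1 alternative, by more than the SD over mice. Levels under the lower quartile of the arrays limit the size of the largest differences.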
